A study of Mus musculus with 21 samples.

Results

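The genes of the constitutive proteasome were followed in 21 RNA sequencing libraries of mouse macrophages. Members were the rows of the count table whose symbol begins with Psma, Psmb, Psmc, Psmd or Psme followed by a digit. Of 47069 rows, 49 matched. The inducible catalytic genes Psmb8 and Psmb10 were left out by the rule, and Psmb9 was not analysed here. Another 5 rows whose name carries the pseudogene mark -ps were left out: Psma5-ps, Psmb5-ps, Psmb6-ps, Psmb7-ps2 and Psme2b, the last listed as Psme2b-ps in another name table. A row also had to reach 1 CPM (a count scaled to the total of its library) in the mean of at least 1 group. Psmb11 was left out by this limit with a highest group mean of 0.166 CPM, and Psma8 lay just inside it with 1.37 CPM. Psme2b, left out for its name, reached a group mean of 6.60 CPM in IL_24h. This left 41 genes, and none of the 41 was lost to the filter on low counts.

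The cells were bone-marrow-derived macrophages of wild-type C57BL/6 mice aged 8 to 10 weeks, grown with the macrophage growth factor M-CSF. The untreated group, Ctrl_0h, was taken at 0 h. The other groups received tumour necrosis factor (TNF_6h and TNF_24h), interleukin 4 with interleukin 13 (IL_6h and IL_24h, where IL stands for both interleukins) or all of these (IL_TNF_6h and IL_TNF_24h), at 10 ng/ml each, for 6 h or 24 h. Each of the 7 groups held 3 libraries, so that every comparison with Ctrl_0h also carries the time in culture. Whether the 3 libraries of a group are distinct cultures or animals is not in the labels, and p values therefore speak of the spread among these libraries alone.

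The proteasome is the protease that degrades proteins marked with ubiquitin. Its 20S core is a barrel of outer alpha rings and inner beta rings, and Psmb5, Psmb6 and Psmb7 encode the beta subunits that cut the substrate. The 19S particle caps the barrel: its base holds the ATPases Psmc1 to Psmc6, which unfold the substrate, and its lid holds the deubiquitinase Psmd14. Psme1 and Psme2 encode the alpha and beta subunits of the 11S activator, which interferon is known to induce in macrophages together with the immunoproteasome subunits Psmb8, Psmb9 and Psmb10. These inducible subunits replace Psmb5, Psmb6 and Psmb7 and alter the peptides made for MHC class I.

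By role the members were 8 alpha ring genes (Psma1 to Psma8, of which Psma8 is known from testis), 7 beta ring genes, 6 base ATPases, 3 base genes without ATPase activity (Psmd1, Psmd2 and Psmd4), 8 lid genes and 3 chaperones of base assembly (Psmd5, Psmd9 and Psmd10). A further 4 members were activators. The remaining 2 members matched the name rule but encode no proteasome subunit. They are Psmc3ip, a meiotic recombination factor, and Psme3ip1, named for its binding to the activator Psme3.

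The promoters of the genes on which the results below turn are shown as the 250 bases before the gene start, 5′ to 3′ in the direction of the gene, from RefSeq on GRCm38.p6. Psme1 lies at chr14:55578494-55581527 on the plus strand, with its promoter at chr14:55578244-55578493. Psme2 lies 5912 bases away at chr14:55587440-55591101 on the minus strand, with its promoter, that of the more upstream of its starts, at chr14:55591102-55591351. Psmd10 is at chrX:140948425-140956711 on the minus strand (promoter chrX:140956712-140956961), and Psmb5 at chr14:54614120-54617995 on the minus strand (promoter chr14:54617996-54618245). Capitals mark CCAAT or its reverse complement in Psmd10, and the pattern TGACNNNGC in Psmb5.
Psme1: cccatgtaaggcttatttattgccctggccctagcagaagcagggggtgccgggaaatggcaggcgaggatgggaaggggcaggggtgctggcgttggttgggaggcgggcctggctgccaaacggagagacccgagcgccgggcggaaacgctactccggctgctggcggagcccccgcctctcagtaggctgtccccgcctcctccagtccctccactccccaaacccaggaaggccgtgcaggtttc
Psme2: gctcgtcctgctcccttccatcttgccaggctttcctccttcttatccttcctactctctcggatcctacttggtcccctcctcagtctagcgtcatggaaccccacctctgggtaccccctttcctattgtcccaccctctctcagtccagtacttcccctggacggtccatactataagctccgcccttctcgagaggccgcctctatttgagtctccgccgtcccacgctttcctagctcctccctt
Psmd10: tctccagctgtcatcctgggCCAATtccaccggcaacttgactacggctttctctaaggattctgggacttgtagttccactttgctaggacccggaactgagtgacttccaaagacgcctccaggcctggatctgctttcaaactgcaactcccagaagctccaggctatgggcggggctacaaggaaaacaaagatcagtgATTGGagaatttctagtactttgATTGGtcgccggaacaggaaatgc
Psmb5: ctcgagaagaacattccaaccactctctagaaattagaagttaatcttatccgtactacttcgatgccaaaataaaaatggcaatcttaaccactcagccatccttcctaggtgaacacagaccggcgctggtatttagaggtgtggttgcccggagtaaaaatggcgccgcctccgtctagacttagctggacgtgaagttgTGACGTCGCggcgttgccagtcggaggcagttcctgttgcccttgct

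Of the 41 members, 34 had a promoter entry, and those without were Psma8, Psmb1, Psmb2, Psmb7, Psmc3, Psmd3 and Psmd7. In total, 5 patterns were searched on both strands of the 250 bases, and a match is a description of letters, not a bound site. For 26 of the 34 the entry was found to run into the start of a transcript of the gene, the 4 printed ones among them, and for the others no such match was found. CCAAT, a common promoter element, was in 14 members (41.2%), against 37.5% of 27025 genes. Psmd10 held it at 230 bases before the start and, on the other strand, at 47 and 24 bases. TGACNNNGC, which resembles the antioxidant response element, was in 5 members (14.7%; Psmb5, Psmb6, Psmc6, Psmd12 and Psmd9), against 11.5% of genes. The match of Psmb6 lies inside the listed bounds of the gene, which start at chr11:70525324, because its promoter entry runs past that position. The letters TTTC, any 2 bases and TTTC, which resemble the interferon-stimulated response element, were in 3 members (8.82%; Psmb3, Psmd4 and Psmd9), against 3.46%. The letters GGGA, any 2 bases and TTCC, which resemble an NF-kB site, were in Psme4 alone (2.94%), against 1.36%. TTCNNNGAA, the letters of a gamma-activated site, was in 0 members, against 8.13%. The printed promoters of Psme1 and Psme2 held none of these letters within their 250 bases.

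The libraries held 28063252 to 48654300 counts, and 15581 genes passed the filter. Levels below are CPM after TMM scaling (the trimmed mean of M values) of the totals, given per library in the order of replicates 1, 2 and 3 or as mean ± SD with n = 3. The macrophage markers Adgre1, Csf1r, Cd68, Itgam, Mertk and Lyz2 summed to 11540 to 39256 CPM over the libraries, and none of 7 marker lists of other cell types summed to more than 18.1 CPM in a library. Over the untreated libraries the B cell markers summed to 0.508 to 7.47 CPM and the dendritic cell markers to 0.261 to 10.1 CPM. The B cell marker Cd79a stood at 0.508, 5.65 and 0.522 CPM in these libraries. The part of other cell types in the results was not tested. The libraries fall into sets by Xist, Ddx3y and Ifi202b, genes named after their values were seen. Xist stood at 162 to 1014 CPM in 15 libraries and at no more than 0.145 CPM in IL_24h and IL_TNF_24h, where Ddx3y stood at 41.8 to 50.9 CPM against 0 elsewhere, and Ifi202b was at 30.3 to 64.2 CPM in IL_6h and IL_TNF_6h and at 0 elsewhere. The comparisons of TNF with untreated cells and of IL_TNF with IL lie within a set. IL against untreated crosses sets, so that there the set and the treatment cannot be told apart. Ctrl_0h replicate 2, IL_6h replicate 2, IL_TNF_6h replicate 3 and IL_TNF_24h replicate 1 stand apart from their groups. Ctrl_0h replicate 2 held 27761 genes with a count, against 17482 and 17243 in replicates 1 and 3. The fibroblast and stromal marker Col1a1 stood at 0.0267, 3.11 and 0.326 CPM in Ctrl_0h and at 0.0221, 5.23 and 0.0287 CPM in IL_6h. It stood at 0.171, 0.0487 and 4.08 CPM in IL_TNF_6h and, without a high replicate 1, at 0.225, 0.514 and 0.508 CPM in IL_TNF_24h. Where a count below turns on the libraries that stand apart, its value without them is given too. Shares of all genes below are those of the main fit to all 21 libraries, not of fits that leave libraries out. Single calls were followed in this way for Psmb5, Psmb6, Psmb7, Psmd14 and Psme1 to Psme4. In each comparison the called members with the largest changes were followed too. The calls of other members were not followed singly.

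Levels of different genes were compared per length, as the mean of the 7 group means in CPM per kb of coding sequence. Reads of untranslated regions are counted too, so this scale overstates genes with long untranslated regions. The activator genes Psme2 (668 CPM per kb) and Psme1 (439) led, followed by the beta ring gene Psmb6 (419), which encodes the caspase-like subunit, and the lid gene Psmd8 (309). The highest of the other classes were Psma7 among the alpha ring (203), Psmc3 among the ATPases (132), Psmd2 among the base genes without ATPase activity (108), Psmd10 among the chaperones (87.0) and, outside the subunits, Psme3ip1 (59.5). Among the catalytic beta genes, Psmb5 stood at 128 CPM per kb and Psmb7 at 62.5. Psme4, which encodes a large single-chain activator, stood at 10.3, and Psma8, the alternative to Psma7 in meiotic cells, at 1.33.

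In untreated cells the alpha ring genes other than Psma8 ranged from 123 to 260 CPM per kb (median 166), and the beta ring genes from 58.5 to 423 (median 226). The ATPases ranged from 49.5 to 191 (median 126), and the lid genes from 27.9 to 310 (median 81.8). In TNF_24h the median of the alpha ring was 263 CPM per kb and that of the beta ring 209, while in IL_24h they were 110 and 102. In TNF_6h the median was 189 for the alpha ring and 215 for the beta ring. By their medians the beta ring thus stood over the alpha ring in untreated cells and TNF_6h, and the alpha ring over the beta ring in TNF_24h and IL_24h. These are group means of few genes, and no test was made of the order.

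**Figure D1:**
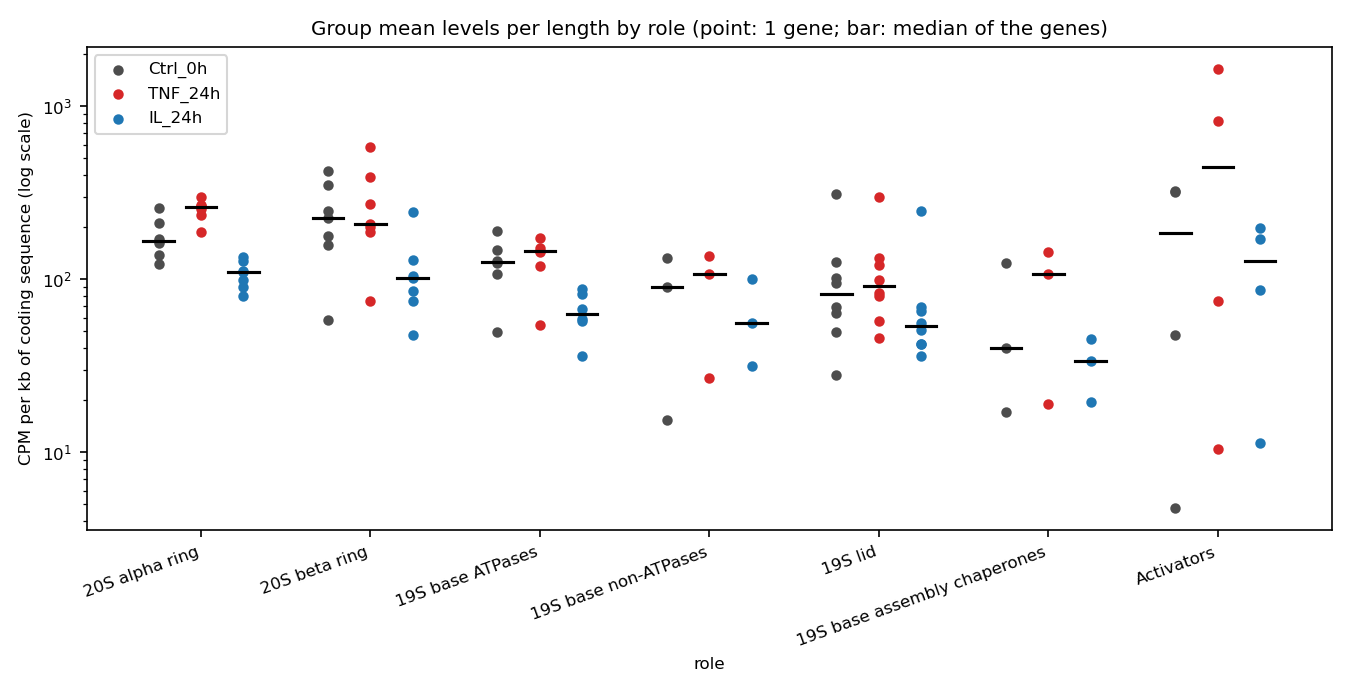
Group mean levels in CPM per kb of coding sequence on a log axis, by role, in untreated cells, TNF_24h and IL_24h, without Psma8 and the 2 members that are no subunit. Each point is 1 gene and each bar the median of a class. The activators spread most widely, from 4.77 to 326 CPM per kb in untreated cells and from 10.4 to 1646 in TNF_24h.

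In the groups taken at 24 h, most members had their highest level in the same library. In TNF_24h, replicate 1 held the highest level of 35 of 41 members and replicate 3 the lowest of 34. In IL_24h, replicate 3 held the highest of 35 and replicate 1 the lowest of 35, and in IL_TNF_24h replicate 1 held the highest of 36. The summed level of the beta ring ran from 1067 to 1675 CPM over the 3 TNF_24h libraries and from 1106 to 1275 over the 3 untreated ones. The untreated and 6 h groups were less uniform. Ctrl_0h replicate 2 held the highest level of 20 members and the lowest of 15, and IL_TNF_6h replicate 3 the highest of 21 and the lowest of 19. The highest level was in replicate 1 for 23 members in TNF_6h and for 18 in IL_6h, where replicate 2 held the lowest of 29.

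TNF alone raised a minority of the members, led by the 11S activator and by Psmd10. After 6 h, 12 of 41 members rose and 1 fell, while 18.8% of all genes tested rose and 20.5% fell. After 24 h, 17 rose and 1 fell, against 20.9% and 24.4%. Both comparisons, and those of IL with untreated cells below, share the 3 Ctrl_0h libraries. All 4 activator genes rose at both times, whereas of the 15 core genes 3 rose at 6 h and 6 at 24 h, and of the 17 genes of the 19S particle 4 and 6. The median log2 fold change over the members was 0.20 at 6 h and 0.23 at 24 h, against -0.04 and -0.09 over all genes. These counts depend on the scaling and on 1 library. With plain library totals in place of TMM, which moved the median of all genes by -0.21 and -0.16, 5 members rose and 6 fell at 6 h and 12 rose and 3 fell at 24 h, with member medians of -0.01 and 0.06 against -0.25 for all genes at both times. Without Ctrl_0h replicate 2, 7 rose at 6 h, and without all 4 libraries that stand apart 20 rose. Psmb6, Psmd10 and the 4 activator genes kept their calls at 6 h in every fit that left out 1 library. The other rises at 6 h were those of Psma4, Psma5, Psmd1, Psmd2, Psmd8 and Psmd11, and most of them were lost without Ctrl_0h replicate 2. In bulk RNA, fewer cells of a type and less RNA per cell cannot be told apart.

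**Figure D2:**
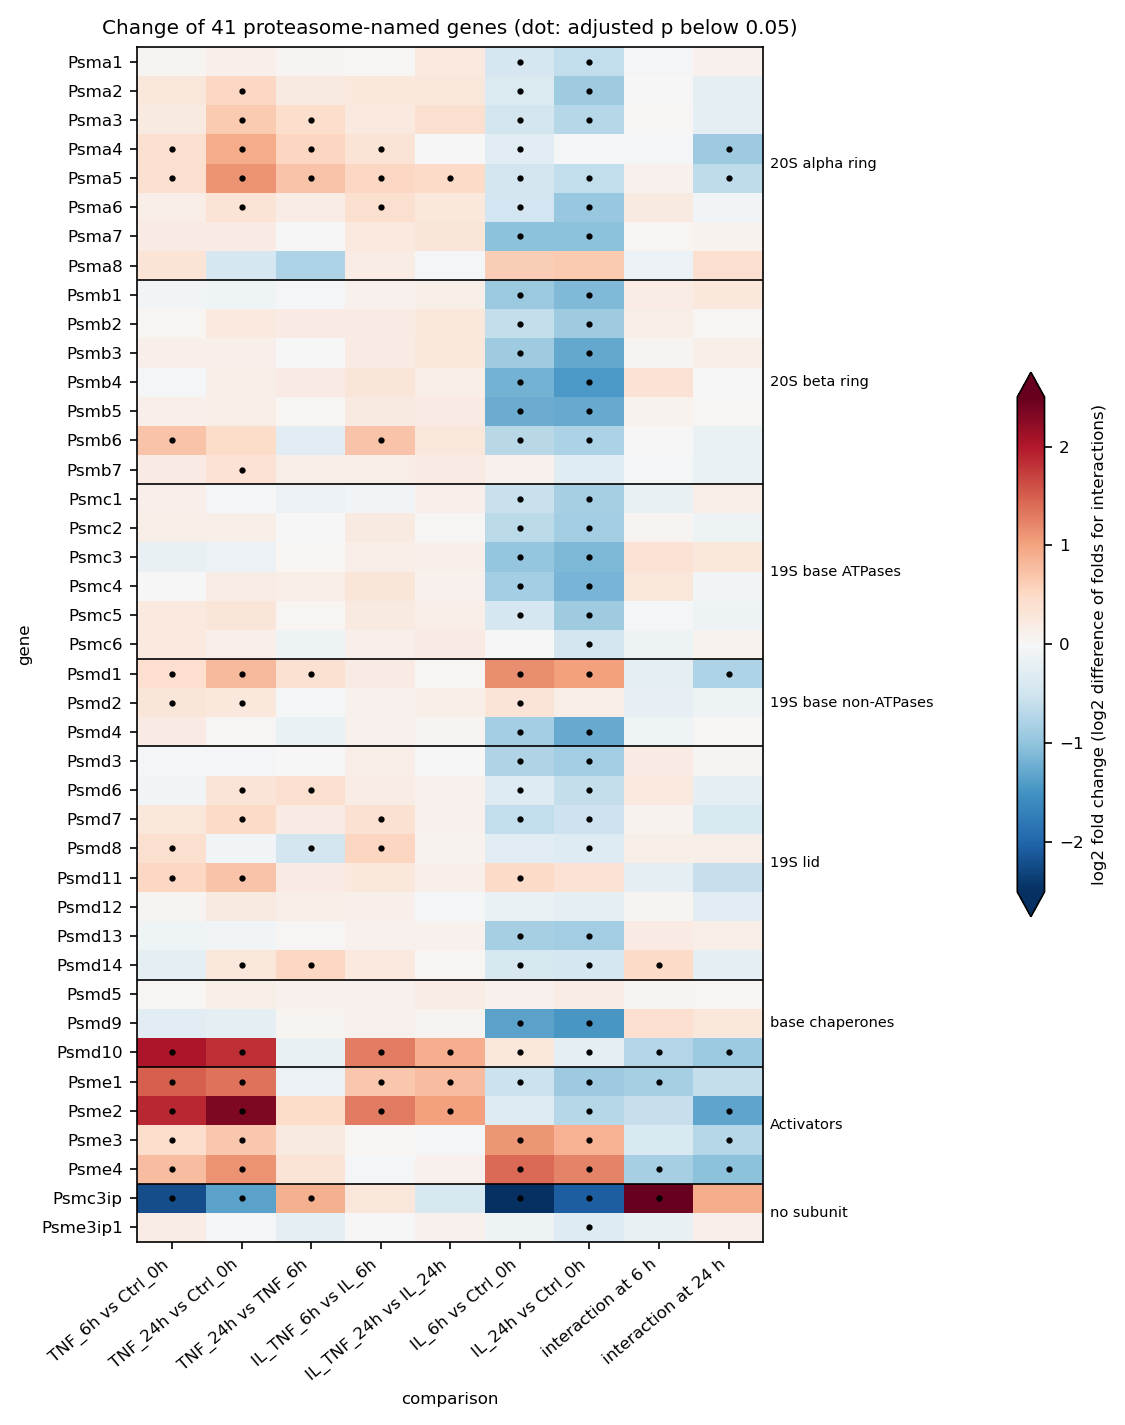
Log2 fold change of the 41 members (rows, by role) in 9 comparisons (columns), with blue for lower and red for higher; a dot marks an adjusted p below 0.05. The colour scale ends at 2.5 in each direction. In the TNF columns the deepest red is at Psmd10, Psme1 and Psme2, and in the IL columns most core and ATPase rows are blue, with 27 and 31 members called lower.

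Psme2, the beta subunit of the 11S activator, stood at 235, 258 and 209.8 CPM in untreated libraries, at 936, 816 and 835 CPM in TNF_6h and at 1396, 1276 and 883 CPM in TNF_24h. Every TNF library lay above every untreated one. Its log2 fold change was 1.88 ± 0.24 (SE) at 6 h (3.68-fold, adjusted p = 3.04e-06) and 2.34 ± 0.24 at 24 h (5.05-fold, adjusted p = 1.77e-07). Psme1, the alpha subunit with which Psme2 forms the activator ring, stood at 242, 243 and 237 CPM untreated, at 748, 669.5 and 616 CPM in TNF_6h and at 706, 665 and 473 CPM in TNF_24h. Again no TNF library reached down to the untreated ones. Its log2 fold change was 1.49 ± 0.19 (2.81-fold, adjusted p = 2.83e-06) and 1.35 ± 0.19 (2.55-fold, adjusted p = 7.28e-06). Per length the ratio of Psme2 to Psme1 was 1.01 ± 0.0917 (SD, n = 3) untreated, 1.33 ± 0.0738 in TNF_6h and 2.00 ± 0.0581 in TNF_24h, and the 3 groups did not overlap.

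The other activators rose less. Psme3, which encodes the nuclear gamma activator that is not induced by interferon, stood at 39.3, 31.4 and 38.3 CPM untreated, at 49.2, 51.0 and 46.9 CPM in TNF_6h and at 56.7, 56.3 and 60.1 CPM in TNF_24h. The groups did not overlap, and its log2 fold change was 0.43 ± 0.11 (adjusted p = 0.00358) and 0.67 ± 0.11 (adjusted p = 5.3e-05). With plain library totals its value at 6 h was 0.23 (adjusted p = 0.108). Psme4 stood at 30.2, 23.0 and 26.0 CPM untreated, at 42.5, 49.9 and 43.4 CPM in TNF_6h and at 49.9, 57.9 and 65.1 CPM in TNF_24h, with log2 fold changes of 0.78 ± 0.20 (adjusted p = 0.00459) and 1.13 ± 0.20 (adjusted p = 1.54e-04). Its TNF libraries were all above its untreated ones.

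Psmd10 encodes gankyrin, a chaperone that holds ATPases during base assembly and also binds cell cycle regulators. Its level was 29.8, 26.7 and 27.4 CPM in untreated libraries, 113, 111 and 116 CPM in TNF_6h and 106, 104 and 88.3 CPM in TNF_24h. It was the member with the largest rise at 6 h, with a log2 fold change of 2.02 ± 0.11 (4.05-fold, adjusted p = 5.95e-11), followed at 24 h by 1.83 ± 0.11 (3.56-fold, adjusted p = 1.26e-10). The other base chaperones did not pass the test in either comparison. Psmd5 had log2 values of 0.04 and 0.15, and Psmd9 of -0.29 and -0.22.

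**Figure D3:**
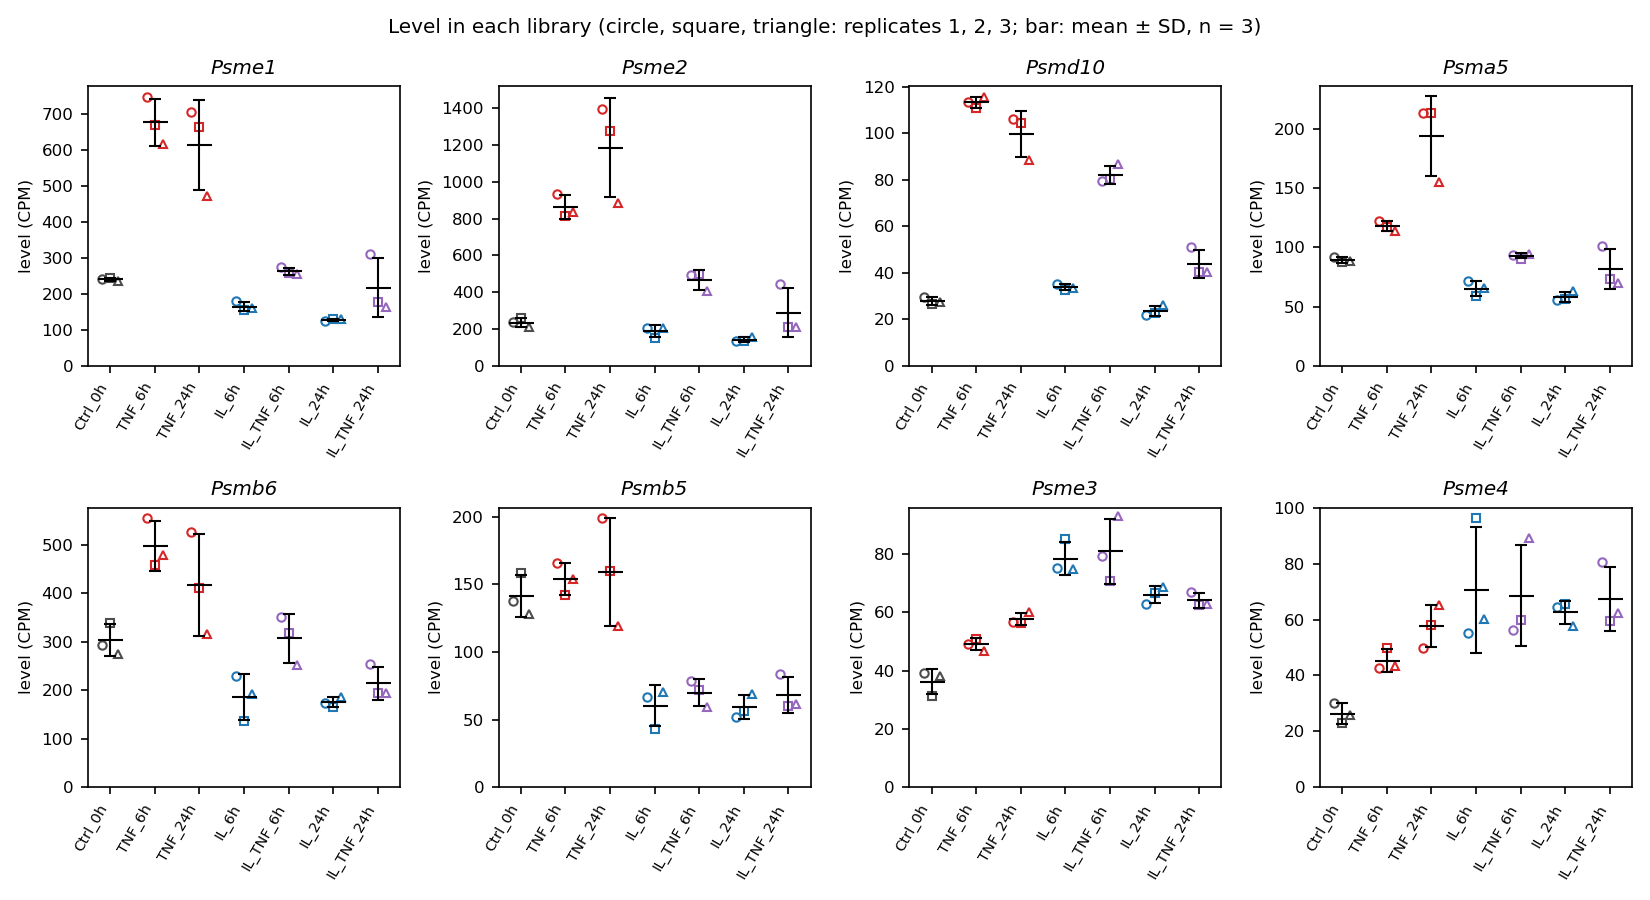
Level in CPM of 8 members in every library, by group; circle, square and triangle are replicates 1, 2 and 3, and the bar is mean ± SD with n = 3. Psme1, Psme2 and Psmd10 are highest in the TNF groups, Psmb5 and Psmb6 lie lower in IL_6h and IL_24h than untreated, and Psme3 and Psme4 lie higher there.

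Among the core genes the alpha ring held most of the rises. Psma5 stood at 92.2, 88.1 and 88.2 CPM untreated, at 122, 117 and 114 CPM in TNF_6h and at 214, 213 and 155 CPM in TNF_24h. Its groups did not overlap, and its log2 fold change was 0.40 ± 0.14 at 6 h (adjusted p = 0.0263) and 1.12 ± 0.14 at 24 h (2.17-fold, adjusted p = 1.74e-06). Psma4 followed the same order, from 109, 116 and 99.9 CPM untreated to 149, 146 and 135 CPM in TNF_6h and 226, 222 and 172 CPM in TNF_24h, with log2 values of 0.40 ± 0.11 (adjusted p = 0.00537) and 0.93 ± 0.11 (adjusted p = 7.44e-07). Psma5, Psma4 or both lost the call at 6 h without Ctrl_0h replicate 2. Psma3, Psma2 and Psma6 also rose at 24 h, by 0.65, 0.51 and 0.35 on the log2 scale. At 24 h Psma1 and Psma7 were not called, with 0.13 and 0.20, nor was Psma8, with -0.42.

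The catalytic beta genes differed in their calls. Psmb6 was the beta gene that rose at 6 h, from 294, 339 and 276 CPM to 556, 458 and 479 CPM, by 0.72 ± 0.19 (adjusted p = 0.00592). In TNF_24h its levels of 526, 409.9 and 315 CPM overlapped the untreated ones, and the value of 0.46 ± 0.19 was not called (adjusted p = 0.0566). It was called with the DESeq2 Wald test (adjusted p = 0.0473) or no filter (0.0133), without the 4 libraries that stand apart (0.62, adjusted p = 0.00304), and without any of 6 single libraries: IL_6h replicate 1 or 2, IL_TNF_6h replicate 3, IL_24h replicate 2, IL_TNF_24h replicate 1 or TNF_24h replicate 3. Psmb7, the trypsin-like subunit, stood at 53.7, 39.2 and 53.7 CPM untreated and at 69.6, 60.9 and 57.3 CPM in TNF_24h, a change of 0.36 ± 0.13 (adjusted p = 0.0333). Without Ctrl_0h replicate 2, its lowest untreated library, the value was 0.22 (adjusted p = 0.19), without TNF_24h replicate 1 it was 0.28 (adjusted p = 0.129), and without TNF_24h replicate 2 it was 0.38 (adjusted p = 0.0603). The call was also lost with plain library totals (0.20, adjusted p = 0.183) and with the compared groups alone (0.37, adjusted p = 0.0556). Psmb5, the chymotrypsin-like subunit, stood at 138, 158 and 128 CPM untreated, at 166, 142 and 154 CPM in TNF_6h and at 199, 159.9 and 119 CPM in TNF_24h. Its groups overlapped, with values of 0.12 ± 0.20 (adjusted p = 0.658) and 0.17 ± 0.20 (adjusted p = 0.5). The remaining beta genes, Psmb1 to Psmb4, ran from -0.11 to 0.25 over both times and none was called.

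In the 19S particle none of the 6 ATPases was called at either time, with values from -0.19 to 0.30. Psmd1, the base scaffold, rose from 46.6, 35.1 and 50.1 CPM to 59.0, 62.0 and 56.3 CPM in TNF_6h and to 68.0, 75.9 and 88.4 CPM in TNF_24h, by 0.43 ± 0.13 (adjusted p = 0.0156) and 0.82 ± 0.13 (adjusted p = 5.54e-05). Its groups did not overlap. The scaffold gene Psmd2 rose by 0.31 and 0.26, and the lid gene Psmd11, whose level is known to set the abundance of assembled proteasomes, by 0.52 and 0.71. Psmd8 rose at 6 h (0.40 ± 0.13, adjusted p = 0.0193) but stood at -0.06 at 24 h (adjusted p = 0.731). Most of the calls of Psmd1, Psmd2, Psmd11 and Psmd8 at 6 h were lost without Ctrl_0h replicate 2. The deubiquitinase Psmd14 went from 69.0, 61.0 and 62.8 CPM untreated to 56.3, 57.6 and 49.9 CPM in TNF_6h (-0.24 ± 0.10, adjusted p = 0.0768) and 83.3, 79.8 and 70.3 CPM in TNF_24h (0.27 ± 0.10, adjusted p = 0.0358). Its TNF_6h libraries all lay under the untreated ones and its TNF_24h libraries above them. The call at 24 h was lost without Ctrl_0h replicate 2 (adjusted p = 0.113), Ctrl_0h replicate 3 (0.0802), TNF_24h replicate 1 (0.112) or TNF_24h replicate 2 (0.0931), and with plain library totals (0.11, adjusted p = 0.379), no filter (0.137), a strict filter (0.0613) or the compared groups alone (0.0708). The lower value at 6 h was called with plain library totals (-0.44, adjusted p = 0.00181), the DESeq2 Wald test (0.0399) and the strict filter (0.0237). Psmd6 and Psmd7 rose at 24 h as well, by 0.33 and 0.48.

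The comparison of TNF_24h with TNF_6h lies within a set and does not use the untreated libraries. Here 7 members rose and 1 fell, against 12.7% and 10.9% of all genes. The largest rise among the subunits was that of Psma5, by 0.72 ± 0.14 (adjusted p = 5.62e-04), followed by Psma4 (0.53), Psmd14 (0.51 ± 0.10, adjusted p = 0.00105), Psma3 (0.43), Psmd1 and Psmd6 (both 0.39). Psmd8 fell from 461, 402 and 440.5 CPM to 362, 308 and 278 CPM, by -0.46 ± 0.13 (adjusted p = 0.0131). This call was lost without TNF_6h replicate 1 (adjusted p = 0.0669), TNF_24h replicate 2 (0.056) or TNF_24h replicate 3 (0.0763). Without TNF_6h replicate 3, 4 members rose, and without TNF_24h replicate 1, 2 fell. None of the 4 activators was called between the times, with Psme2 at 0.46 (adjusted p = 0.166), Psme4 at 0.35, Psme3 at 0.23 and Psme1 at -0.14. Without the 4 libraries that stand apart, Psme2 (0.45, adjusted p = 0.00853), Psme4 (0.33, adjusted p = 0.0107) and Psme3 (0.22, adjusted p = 0.0168) were called at nearly the same values, and Psme2 was also called without IL_TNF_24h replicate 1 alone (adjusted p = 0.0468). The catalytic genes were not called either, with Psmb5 at 0.05, Psmb6 at -0.26 and Psmb7 at 0.15.

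TNF given together with IL was compared with IL alone at the same time. At 6 h, 9 of 41 members rose and 0 fell, while 7.09% of all genes rose and 6.98% fell, and at 24 h 4 rose and 0 fell, against 6.03% and 5.08%. At an unadjusted p below 0.05, 11 were higher at 6 h and 10 at 24 h, and 0 were lower at both; the DESeq2 Wald test also called 0 lower, and it called 7 higher at 24 h. The median over the members was 0.21 at 6 h and 0.14 at 24 h, against -0.01 and 0.00 over all genes, and 39 and 37 of the 41 values were above 0. The counts rest partly on single libraries. Without IL_6h replicate 2, 3 members rose at 6 h, without IL_TNF_6h replicate 1, 4, and without IL_TNF_6h replicate 2, 5. At 24 h, 2 rose without IL_TNF_24h replicate 1. The 4 dendritic cell markers summed to 2.23 to 3.33 CPM in IL_6h and to 5.40 to 5.73 CPM in IL_TNF_6h. At 24 h they summed to 2.32 to 3.42 CPM in IL_24h and to 6.53 to 18.1 CPM in IL_TNF_24h. Of these markers Flt3 went the other way at 6 h, with group means of 0.401 CPM in IL_6h and 0.117 CPM in IL_TNF_6h. The part of the dendritic cell markers in the result was not tested.

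Psmd10 again held a large change. It rose from 35.3, 32.7 and 33.5 CPM in IL_6h to 79.5, 80.2 and 86.6 CPM in IL_TNF_6h, by 1.28 ± 0.11 (2.43-fold, adjusted p = 7.16e-08). At 24 h it rose from 21.8, 22.6 and 26.0 CPM to 50.9, 40.5 and 40.2 CPM, by 0.90 ± 0.11 (1.87-fold, adjusted p = 7.63e-06). The groups did not overlap at either time, and no library left out alone ended a call of Psmd10 in these comparisons.

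Psme2 went from 207, 152 and 206 CPM in IL_6h to 496, 497 and 404 CPM in IL_TNF_6h, by 1.31 ± 0.23 (2.47-fold, adjusted p = 4.57e-04). At 24 h it went from 134, 137 and 156 CPM to 445, 210.1 and 213 CPM, by 1.02 ± 0.23 (2.03-fold, adjusted p = 0.00496). All libraries with TNF were above those without, and IL_TNF_24h replicate 1 was far above the other 2. Without that library the value of Psme2 at 24 h was 0.58. Its call at 24 h held in every fit that left out 1 library, with a highest adjusted p of 0.0474. Psme1 stood at 179.5, 156 and 159.5 CPM in IL_6h and 275, 259 and 254 CPM in IL_TNF_6h, a rise of 0.67 ± 0.18 (adjusted p = 0.0165). That call was lost without IL_6h replicate 2 (adjusted p = 0.0589), IL_6h replicate 3 (0.0723) or IL_TNF_6h replicate 1 (0.0636). At 24 h Psme1 stood at 126, 129 and 129 CPM in IL_24h and 311, 177 and 163 CPM in IL_TNF_24h, a rise of 0.76 ± 0.18 (adjusted p = 0.00809), and without IL_TNF_24h replicate 1 the value was 0.42 (adjusted p = 0.0782). With the compared groups alone it was 0.77 (adjusted p = 0.06). Psme3 and Psme4 were not called, with 0.05 and -0.04 at 6 h and -0.04 and 0.11 at 24 h.

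In the core, Psma5 rose at both times, from 71.4, 59.2 and 65.4 to 93.7, 90.5 and 94.9 CPM at 6 h (0.51 ± 0.14, adjusted p = 0.0135) and from 55.3, 56.6 and 63.1 to 101, 73.2 and 70.2 CPM at 24 h (0.48 ± 0.14, adjusted p = 0.0239). Without IL_TNF_24h replicate 1, the 2 members that rose at 24 h were Psme2 and Psmd10, so the call of Psma5 was lost. Psmb6 rose at 6 h from 230.2, 136 and 192 to 350.2, 319 and 251 CPM, by 0.72 ± 0.19 (adjusted p = 0.0137), and at 24 h it stood at 0.29 (adjusted p = 0.472). The lower IL_6h replicate 2 bears on this value, which was 0.55 (adjusted p = 0.0785) without it, 0.61 (adjusted p = 0.0802) without IL_TNF_6h replicate 1 and 0.69 (adjusted p = 0.055) without IL_TNF_6h replicate 2. With the compared groups alone it was 0.73 (adjusted p = 0.0567). Psma4, Psma6, Psmd7 and Psmd8 rose at 6 h too, by 0.35, 0.39, 0.38 and 0.54. Without IL_6h replicate 2, 3 members rose at 6 h, with Psme2 and Psmd10 among them. Most of the rises of Psma4, Psma5, Psma6, Psmd7 and Psmd8 at 6 h were therefore lost in that fit. The catalytic genes Psmb5 and Psmb7 were not called at either time, with 0.22 and 0.16 at 6 h and 0.21 and 0.20 at 24 h, and nor was Psmd14, with 0.24 and 0.04.

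The log2 fold change by TNF beside IL less that in its absence was tested as an interaction. Both interactions use the same untreated libraries. The libraries with IL belong to other sets than those without it, at 6 h and at 24 h to different ones, so in each interaction the presence of IL and the set cannot be told apart. At 6 h, 2 members had a higher and 3 a lower effect with IL, while 9.27% and 9.13% of all genes did, so the members' share was not above that of all genes. At 24 h 0 had a higher and 7 a lower effect, against 11.6% and 12.5% of all genes; at an unadjusted p below 0.05, 1 was higher and 10 lower, and the DESeq2 Wald test called 1 higher. With plain library totals, 3 were higher and 2 lower at 6 h and 1 higher and 7 lower at 24 h. Without the 4 libraries that stand apart, 1 was higher and 5 lower at 6 h and 1 higher and 12 lower at 24 h. Single libraries moved the count lower at 6 h from 3 to 1 (without Ctrl_0h replicate 3, IL_TNF_6h replicate 1 or 2, or TNF_6h replicate 1 or 2) or to 5 (without IL_TNF_6h replicate 3 or IL_TNF_24h replicate 1), and the count higher from 2 to 1 (without Ctrl_0h replicate 1, IL_6h replicate 2 or 3, IL_TNF_6h replicate 3, TNF_6h replicate 3, IL_24h replicate 2 or IL_TNF_24h replicate 1). At 24 h, 1 was higher without IL_TNF_24h replicate 1.

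Psmd10 was lower in both, with a difference of log2 folds of -0.74 ± 0.15 at 6 h (adjusted p = 0.00196) and -0.93 ± 0.15 at 24 h (adjusted p = 1.75e-04). The 11S genes had smaller rises with IL at both times in value. Psme2 differed by -0.57 ± 0.32 at 6 h (adjusted p = 0.24) and by -1.31 ± 0.32 at 24 h (adjusted p = 0.00636). Without the 4 libraries that stand apart its values were -0.76 (adjusted p = 0.0127) and -1.91, and without IL_TNF_24h replicate 1 alone the value at 6 h was -0.65 (adjusted p = 0.0474). Psme1 differed by -0.82 ± 0.26 at 6 h (adjusted p = 0.032), a call lost on leaving out any of 7 single libraries, and by -0.59 ± 0.26 at 24 h (adjusted p = 0.107), which became -1.01 (adjusted p = 4.57e-04) without the 4 libraries, -1.01 (adjusted p = 6.92e-04) without IL_TNF_24h replicate 1 and -0.75 (adjusted p = 0.0484) without TNF_24h replicate 3. The 7 libraries were Ctrl_0h replicate 3, IL_6h replicates 1 and 3, IL_TNF_6h replicates 1 and 2 and TNF_6h replicates 1 and 2.

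Psme4 and Psme3 rose with TNF alone and had values near 0 when IL was present. The difference for Psme4 was -0.82 ± 0.28 at 6 h (adjusted p = 0.0489) and -1.02 ± 0.28 at 24 h (adjusted p = 0.013). The first lies close to the threshold and was lost in 15 of the 21 fits that left out 1 library, with a highest adjusted p of 0.127, and with plain library totals (0.109), the strict filter (0.0538) or the compared groups alone (0.115). Psme3 differed by -0.39 ± 0.15 (adjusted p = 0.0847) and -0.71 ± 0.15 (adjusted p = 0.00216). At 6 h it was called without the 4 libraries that stand apart (-0.41, adjusted p = 0.0128), with the DESeq2 Wald test (0.042), and without IL_TNF_6h replicate 3 (0.00972), IL_TNF_24h replicate 1 (0.038) or IL_24h replicate 2 (0.0499). Psma4, Psmd1 and Psma5 also had lower effects at 24 h, by -0.91, -0.78 and -0.63. Psmd14 had a higher effect at 6 h, by 0.47 ± 0.15 (adjusted p = 0.0279). That call was lost without Ctrl_0h replicate 1, IL_6h replicate 2 or 3, IL_TNF_6h replicate 3, TNF_6h replicate 3, IL_24h replicate 2 or IL_TNF_24h replicate 1, with a highest adjusted p of 0.155, without the 4 libraries together (0.069) and with no filter (0.293). The catalytic genes Psmb5, Psmb6 and Psmb7 differed by 0.09, 0.01 and -0.04 at 6 h and by 0.04, -0.17 and -0.16 at 24 h, and none was called.

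**Figure D4:**
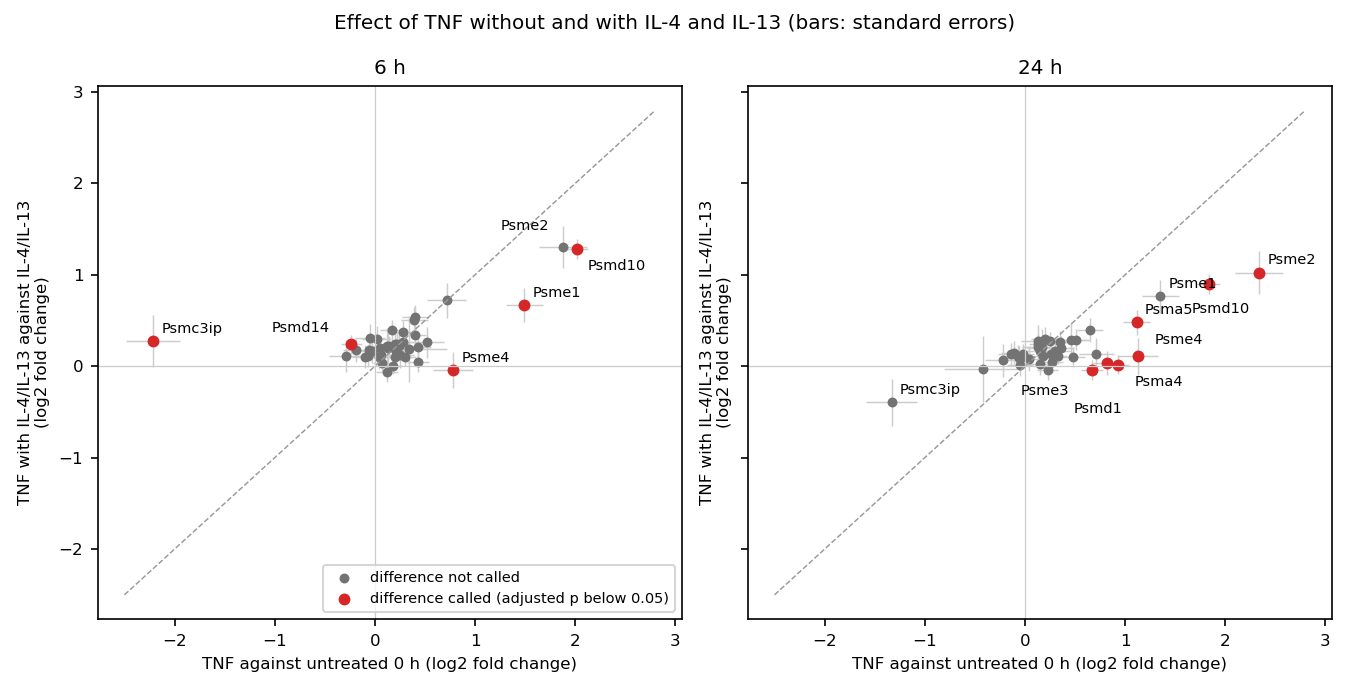
Log2 fold change of each member by TNF without IL (horizontal) and with IL (vertical) at 6 h and 24 h, with standard errors; the dashed line marks equal effects and red points a called difference. The called points other than Psmc3ip and Psmd14 lie under the line, with Psmd10 at 2.02 and 1.28 at 6 h and Psme2 at 2.34 and 1.02 at 24 h.

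IL alone went with lower levels of most subunits. Against untreated cells, 27 of 41 members fell and 6 rose in IL_6h, while 31.6% of all genes fell and 32.8% rose. In IL_24h, 31 fell and 3 rose, against 32.6% and 31.7%, and without IL_6h replicate 2 in the joint fit 5 rose. The median over the members was -0.45 and -0.72, against -0.01 and -0.06 over all genes. Of the 15 core genes 13 fell at 6 h and 12 at 24 h, and of the 6 ATPases 5 and 6. As stated above, the sets and the treatment cannot be told apart in this comparison.

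Psmb5 fell from 138, 158 and 128 CPM untreated to 66.9, 42.9 and 70.7 CPM in IL_6h and 52.1, 56.3 and 69.3 CPM in IL_24h. Both IL groups lay far under the untreated one, with log2 fold changes of -1.23 ± 0.20 (adjusted p = 2.52e-05) and -1.25 ± 0.20 (adjusted p = 2.23e-05). Psmb4, a beta ring gene without catalytic activity, went from 277, 301 and 258 CPM to 146, 103 and 118 CPM in IL_6h and 98.4, 104 and 108 CPM in IL_24h, by -1.19 and -1.43 ± 0.16 (2.69-fold lower, adjusted p = 2.39e-07). Psmb6 fell by -0.70 ± 0.19 (adjusted p = 0.00352) and -0.79 ± 0.19 (adjusted p = 0.0015), and at 6 h its value was -0.39 (adjusted p = 0.054) without the 4 libraries that stand apart. Psmb7 was the beta ring gene that did not pass the test, with 0.11 ± 0.13 (adjusted p = 0.496) and -0.30 ± 0.13 (adjusted p = 0.0561). At 24 h it was called lower with DESeq2 size factors (adjusted p = 0.0273), the DESeq2 Wald test (0.0195) or the strict filter (0.0197), without the 4 libraries that stand apart (-0.39, adjusted p = 0.0066), and without Ctrl_0h replicate 2 (adjusted p = 0.006) or IL_24h replicate 3 (0.0162). Of the alpha ring Psma7 fell most, from 189.6, 210.2 and 182 CPM to 107, 80.6 and 99.95 CPM in IL_6h and 88.8, 95.8 and 102 CPM in IL_24h, by -1.02 at both times.

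The ATPase Psmc3 fell by -0.96 and -1.11, and the ubiquitin receptor Psmd4 by -0.84 and -1.25. Psmd14 fell from 69.0, 61.0 and 62.8 CPM to 49.9, 51.0 and 45.8 CPM in IL_6h and 46.5, 48.1 and 47.4 CPM in IL_24h, by -0.39 ± 0.10 (adjusted p = 0.00249) and -0.44 ± 0.10 (adjusted p = 0.00101). The value at 6 h was -0.23 (adjusted p = 0.0511) with plain library totals and -0.35 (adjusted p = 0.0801) with no filter. The chaperone Psmd9 went from 84.5, 84.9 and 81.4 CPM to 39.9, 25.2 and 34.1 CPM in IL_6h and 29.2, 29.3 and 32.6 CPM in IL_24h, by -1.34 ± 0.18 (2.53-fold lower, adjusted p = 2.92e-06) and -1.46 ± 0.18 (2.75-fold lower, adjusted p = 1.14e-06). The IL libraries of both genes lay under all their untreated ones.

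The activators divided. Psme1 fell to 179.5, 156 and 159.5 CPM in IL_6h (-0.55 ± 0.18, adjusted p = 0.0141; -0.46 and adjusted p = 0.0751 without IL_6h replicate 2) and 126, 129 and 129 CPM in IL_24h (-0.91 ± 0.18, adjusted p = 2.70e-04). Psme2 stood at -0.32 ± 0.23 at 6 h (adjusted p = 0.232) and fell by -0.72 ± 0.23 at 24 h (adjusted p = 0.0104; 0.052 without IL_24h replicate 2). Psme3 rose to 75.4, 85.1 and 74.9 CPM in IL_6h and 63.1, 66.6 and 68.7 CPM in IL_24h, by 1.11 ± 0.11 (2.16-fold, adjusted p = 5.71e-08) and 0.86 ± 0.11 (1.82-fold, adjusted p = 1.37e-06). Psme4 rose to 55.2, 96.4 and 60.1 CPM and 64.5, 65.5 and 57.7 CPM, by 1.42 ± 0.20 (adjusted p = 5.99e-06) and 1.25 ± 0.20 (adjusted p = 2.79e-05). No IL library of Psme3 or Psme4 reached down to the untreated ones. Per length the ratio of Psme3 to Psme1 was 0.148 ± 0.0186 (SD, n = 3) untreated, 0.0713 ± 0.00585 in TNF_6h and 0.507 ± 0.0143 in IL_24h.

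Psmd1 was the subunit gene outside the activators that rose most, from 46.6, 35.1 and 50.1 CPM to 87.8, 107 and 99.7 CPM in IL_6h and 84.2, 90.6 and 94.8 CPM in IL_24h, by 1.16 ± 0.13 (adjusted p = 4.44e-07) and 1.03 ± 0.13 (adjusted p = 1.97e-06). Every IL library of Psmd1 lay above every untreated one. Psmd11, Psmd2 and Psmd10 rose at 6 h, by 0.48, 0.33 and 0.27. At 24 h Psmd10 fell by -0.25 ± 0.11 (adjusted p = 0.0486), and Psmd11 and Psmd2 stood at 0.36 and 0.16 without a call.

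The change by IL ran with coding length over all genes. The 12848 tested genes with a length were split into 3 classes of like size: the short class, with at most 1014 coding bases, had a median of -0.49 at 6 h and -0.58 at 24 h, the middle class had 0.00 and -0.06, and the long class, above 1836 bases, had 0.38 and 0.43. The members are short: 24 lie in the short class, 14 in the middle class and 3 (Psmd1, Psmd2 and Psme4) in the long class. In the short class 18 members fell at 6 h and 20 at 24 h, with medians of -0.47 and -0.75, while 49.1% and 52.6% of all short genes fell. In the middle class 9 of 14 fell at 6 h and 11 at 24 h, with medians of -0.49 and -0.85, while 31.4% and 32.6% of all genes of that length fell. The 3 long members rose at 6 h, and at 24 h Psmd1 and Psme4 rose. Psme3 rose with a coding length of 765 bases, in a transcript of 2664 bases. Across the 41 members Spearman's rho of the change with coding length was 0.32 at 6 h and 0.40 at 24 h, a description over genes measured in the same libraries. The part of length in these results was not tested. In the TNF comparisons the medians of the short and long classes were nearer, at -0.09 and -0.03 in TNF_6h and -0.17 and -0.01 in TNF_24h.

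**Figure D5:**
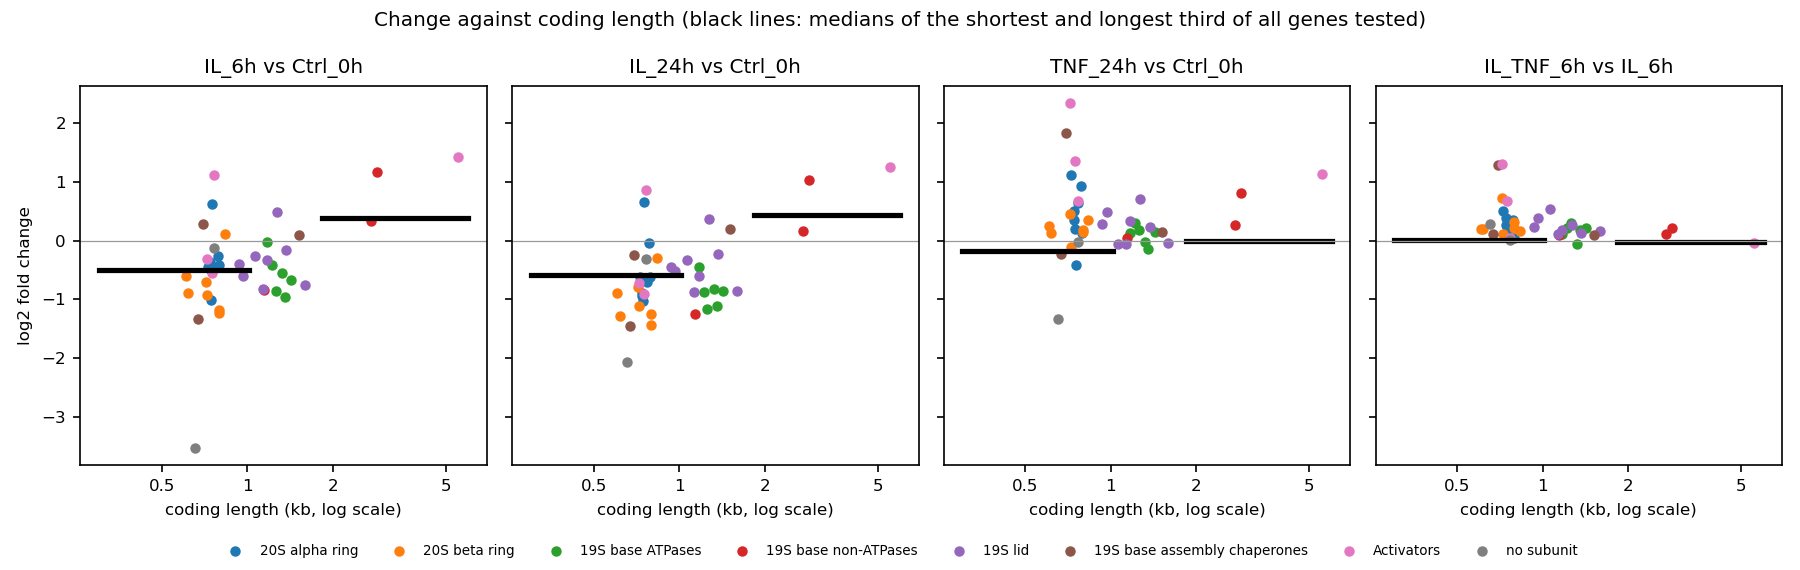
Log2 fold change of the members against coding length (log axis, kb) in 4 comparisons, with colour for role; black lines are the medians of the short and long class of all genes tested. In the IL panels the lines lie at -0.49 and 0.38 (6 h) and -0.58 and 0.43 (24 h) and most members lie under 0, whereas in the panel of TNF_24h they lie at -0.17 and -0.01 and Psme1, Psme2, Psme4, Psmd10 and Psma5 lie above 1.

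The genes that work with the proteasome were described from lists. The inducible catalytic genes Psmb8 and Psmb10 both rose with TNF alone at 6 h (by 1.35 and 2.03) and 24 h (by 1.30 and 2.52). Both also rose with TNF beside IL, by 0.74 and 0.95 at 6 h and by 0.97 and 0.80 at 24 h. Against untreated cells, Psmb8 fell in IL_6h and IL_24h, by -1.0 and -1.31. Psmb8 encodes the subunit that takes the place of Psmb5. Their ratio per length was 1.64, 1.67 and 1.63 in the untreated libraries, 3.95, 3.81 and 3.85 in TNF_6h and 3.44, 3.93 and 3.47 in TNF_24h, against 1.67, 1.58 and 1.52 in IL_24h and 3.07, 2.34 and 2.48 in IL_TNF_24h. The ratio was higher in every library with TNF than in any of the libraries without TNF, which in IL_6h reached 2.01. The ratio of Psmb10 to Psmb7, which it replaces, was 20.7, 14.6 and 15.5 in TNF_6h and 23.4, 23.5 and 16.3 in TNF_24h. In IL_TNF_24h it was 10.9, 8.10 and 6.75. These values all lay above those without TNF, which were 4.26, 6.62 and 3.86 untreated, 4.87, 2.82 and 4.05 in IL_6h and 6.17, 6.03 and 5.04 in IL_24h. In IL_TNF_6h it was 8.25, 7.58 and 4.71, so replicate 3 of that group overlapped the libraries without TNF.

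Of 14 assembly and accessory factors, 2 rose and 2 fell in TNF_6h, 3 rose and 2 fell in TNF_24h, and 3 rose and 9 fell in both IL_6h and IL_24h. Of all genes, 18.8% rose and 20.5% fell in TNF_6h, 20.9% and 24.4% in TNF_24h, 32.8% and 31.6% in IL_6h and 31.7% and 32.6% in IL_24h, so with TNF alone the counts of these factors lie near or under what those shares give. Pomp, which drives maturation of the core, rose by 0.41 and 0.52 with TNF and fell by -0.56 and -0.73 with IL. The large scaffold Ecpas rose by 0.49, 0.68, 1.03 and 1.19 in the same order. Of 7 genes around NRF1, the transcription factor that raises proteasome genes when the proteasome is inhibited, 5 rose and 0 fell in TNF_6h, 5 rose and 2 fell in TNF_24h, and 4 and 5 rose with IL, to be read against the same shares of all genes. Nfe2l1, which encodes NRF1, rose by 1.18 and 0.78 with TNF and by 1.14 and 1.15 with IL. These are levels of its RNA, and the comparison of IL with untreated cells crosses sets. The part of NRF1 in the results was not tested.

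Of the 2 members that are no subunit, Psmc3ip fell in both comparisons of TNF and both of IL with untreated cells. Psmc3ip stood at 11.2, 11.3 and 13.3 CPM untreated, at 2.11, 3.10 and 2.48 CPM in TNF_6h, at 5.65, 4.10 and 4.47 CPM in TNF_24h, at 1.10, 0.663 and 1.35 CPM in IL_6h and at 2.57, 3.0 and 2.97 CPM in IL_24h. It was highest in every untreated library. It fell by -2.21 ± 0.27 in TNF_6h (4.64-fold lower, adjusted p = 1.67e-06), by -1.33 ± 0.26 in TNF_24h (adjusted p = 3.07e-04), by -3.52 ± 0.28 in IL_6h (11.5-fold lower, adjusted p = 4.66e-09) and by -2.07 ± 0.26 in IL_24h (adjusted p = 1.43e-06), and it is the only member counted as fallen with TNF. From TNF_6h to TNF_24h it rose by 0.89 ± 0.26 (adjusted p = 0.0177), a call lost without TNF_6h replicate 1 (adjusted p = 0.0927), TNF_6h replicate 3 (0.0629) or TNF_24h replicate 1 (0.0787). Its interaction at 6 h was 2.49 ± 0.38 (adjusted p = 1.34e-04). Psme3ip1 stood at 38.6 to 54.9 CPM in the group means and was called in IL_24h, where it fell by -0.32 ± 0.09 (adjusted p = 0.00378).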

How the data were processed

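RNA of 21 libraries of bone-marrow-derived macrophages was counted per gene. The values are the authors' deposited counts, whole numbers in 1 table of 47069 genes and 21 libraries without normalization. The build GRCm38 is named in the submitters' processing notes, as are edgeR 3.28.1, Subread 1.6.3 with its featureCounts, and TopHat2 2.0.12. Not given in the sources used here were the annotation, the strand, how read pairs were counted and how reads that match several places, such as processed pseudogenes, were treated. The value 2 occurred 30373 times and the value 1 occurred 17808 times, so many fragments may be counted once per mate. Without a known strand, reads of overlapping antisense genes cannot be told apart.

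From these counts, R 4.3.3 with edgeR 4.0.16 and limma 3.58.1 was used. Names tables gave 32832 genes a symbol, of which 2595 older ones were updated. Genes were filtered with filterByExpr by group (15581 of 32292 with a count), libraries scaled by TMM, and 1 model fitted to all 21 libraries. The 9 comparisons used edgeR's quasi-likelihood F test, with Benjamini-Hochberg adjustment over all genes tested and a threshold of 0.05. Standard errors are absolute log2 fold changes divided by the root of F. Coding lengths are those of the longest coding transcript of the mouse gencode vM1 set. The members, lists and alternatives were chosen with earlier results of these data known. Named were, in each comparison, Psmb5, Psmb6, Psmb7, Psmd14 and Psme1 to Psme4, the 3 raised and 3 lowered members with the largest called change, and per role the highest level per length. Other members were named after their values were seen, and their single calls were not followed under the alternatives. Alternatives were DESeq2 1.42.0 size factors, its Wald test, no filter, a filter of 1 CPM in 3 libraries, the compared groups alone, a replicate block, each library left out, 4 libraries left out together and, added after the data were seen, plain library totals. A further list of pathway genes is not reported here. The fits were tested on simulated data. Depth was 28063252 to 48654300 counts a library.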

Additional observations from a re-analysis of the deposited data

Results flagged for a closer look

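A test of the difference between the effect of TNF with IL and without it picked the following members. The libraries with IL belong to other sets than those without, so the presence of IL and the set cannot be told apart. At 6 h, 2 of 41 members had a higher and 3 a lower effect with IL, against 9.27% and 9.13% of all genes. The higher ones were Psmc3ip (2.49) and Psmd14 (0.47), and the lower ones were Psmd10 (-0.74), Psme1 (-0.82) and Psme4 (-0.82), as differences of log2 fold changes. The calls of Psmd14, Psme1 and Psme4 at 6 h were lost in 7, 7 and 15 of the 21 fits that left out 1 library. At 24 h, 0 members had a higher and 7 a lower effect, against 11.6% and 12.5% of all genes. Among the 7 were Psme2 (-1.31), Psme4 (-1.02), Psmd10 (-0.93) and Psme3 (-0.71). Psmd10 was called at both times.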

How the results depend on the processing

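Counts of called members are given as raised and lowered. The shares of all genes stated above belong to the main fit. No such share is given for the alternatives, so their counts cannot be set against all genes of the same fit. With plain library totals, which shifted the median of all genes by up to -0.21, 5 rose and 6 fell in TNF_6h, 3 fell in TNF_24h, 5 rose in IL_24h and 1 was higher in the interaction at 24 h. With the DESeq2 Wald test, 2 fell in TNF_6h, 7 rose in IL_TNF_24h, 2 fell between TNF_6h and TNF_24h, and 1 was higher in the interaction at 24 h. With no filter, 4 rose and 0 fell between TNF_6h and TNF_24h, and 1 was higher in the interaction at 6 h. With the strict filter, 2 fell in TNF_6h and 1 was higher in the interaction at 24 h. With the compared groups alone, 5 rose in IL_TNF_6h and 3 in IL_6h. Without the 4 libraries, 20 rose in TNF_6h, 2 fell between TNF_6h and TNF_24h, 1 was higher and 5 lower in the interaction at 6 h, and 1 higher and 12 lower at 24 h. The cause was not tested.

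Leaving out each library in turn gave 7 to 16 raised in TNF_6h, 13 to 21 in TNF_24h, 3 to 9 in IL_TNF_6h, 2 to 5 in IL_TNF_24h, 4 to 6 in IL_6h, 3 to 5 in IL_24h and 4 to 8 between TNF_6h and TNF_24h. Lowered were 1 in TNF_6h, 1 in TNF_24h, 0 in IL_TNF_6h and IL_TNF_24h, 22 to 27 in IL_6h, 27 to 32 in IL_24h and 0 to 2 between TNF_6h and TNF_24h. The interaction gave 1 to 2 higher and 1 to 5 lower at 6 h, and 0 to 1 higher and 6 to 9 lower at 24 h.

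Of 2668 values of single members under an alternative, 2514 kept their direction and call, 70 lost a call, 34 gained one and 50 changed sign, none of them a called value. Signs changed with plain library totals for Psmb5 in TNF_6h (-0.0916) and TNF_24h (-0.00581), Psme3 in IL_TNF_6h (-0.0543), Psmd14 in IL_TNF_24h (-0.0155) and Psmb7 in the interaction at 6 h (0.0577). With no filter they changed for Psmb6 at 6 h (-0.0309) and Psmb5 at 24 h (-0.0285) in the interactions. With the compared groups alone they changed for Psmb7 at 6 h (0.00465) and Psmb5 at 24 h (-0.00978). Without the 4 libraries they changed for Psme4 in IL_TNF_6h (0.0248) and IL_TNF_24h (-0.0356), and in the interactions for Psmb5 (-0.152) and Psmb6 (-0.213) at 6 h and Psmb5 (-0.291) at 24 h. Single libraries left out gave -0.0115 to 0.350 for Psmb5 in TNF_24h, -0.0573 to 0.133 for Psme3 and -0.272 to 0.261 for Psme4 in IL_TNF_6h, -0.0361 to 0.191 for Psme4 in IL_TNF_24h, -0.0333 to 0.187 for Psmb7 in IL_6h, and -0.140 to 0.222 for Psmb5 and -0.252 to 0.0165 for Psme1 between TNF_6h and TNF_24h. In the interaction they gave -0.172 to 0.219 for Psmb5, -0.251 to 0.181 for Psmb6 and -0.175 to 0.0930 for Psmb7 at 6 h, and -0.203 to 0.221 for Psmb5 and -0.386 to 0.0184 for Psmb6 at 24 h.

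With the replicate number as a block, 12, 18, 9, 4, 6, 3 and 7 members rose and 1, 1, 0, 0, 28, 31 and 1 fell in TNF_6h, TNF_24h, IL_TNF_6h, IL_TNF_24h, IL_6h, IL_24h and between TNF_6h and TNF_24h. The interactions under the block gave 2 higher and 2 lower at 6 h, and 0 higher and 7 lower at 24 h. Under the block Psmb6 in TNF_24h (adjusted p = 0.0383) and Psmb7 in IL_24h (0.0468) were called, and Psme4 in the interaction at 6 h was not (0.0666). Same-numbered libraries of different groups had correlations of -0.31 to 0.36 (median 0.00665), and 7 of 21 libraries correlated best with their own number, so the numbers were not taken as a pairing. Depth limits Psma8, at 0.395 to 2.04 CPM, and Psmc3ip, at 0.663 to 13.3 CPM.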
